A study of Mus musculus with 50 samples.

Results

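The mouse strains c57BL/6J, C57BR/cdJ and C58/J, spelled as in the sample labels, were compared in dorsal root ganglion with the other inbred strains of the study, and what follows is limited to genes shifted in the same direction in all 3. They contributed 6 of the 50 arrays, 1 male and 1 female each. The 40 comparison arrays came from 20 strains, and the 4 arrays of SM/J and PL/J were left out. All mice carried the wildtype genotype, were naive and were 2 months old, so that neither group had a treatment or an engineered allele. By the labels, each array held RNA pooled from 3 mice of 1 sex. Dorsal root ganglia hold the cell bodies of the sensory neurons of the trunk and limbs. A gene counted as shared when its adjusted p was under 0.05 (limma, 3 against 20 strain means, Benjamini-Hochberg adjustment over 22130 probe sets) and all 6 lineage arrays lay on the same side of the mean of the other strains for their gender label. This held for 61 of 11183 genes tested (0.545%).

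Inbred mouse strains are homozygous at nearly every locus, so that a variant fixed in the founders of a family of strains is carried by all of its members unless it was lost during inbreeding. The C57 and C58 strains trace to females of a single breeder's stock that were mated with the same male. Strains of other origin can carry the same ancestral haplotype at a given locus, because the classical laboratory strains descend from a small pool of fancy mice. A variant that acts on the gene in which it lies gives a difference that is inherited with its chromosomal segment. In whole ganglion, fewer cells of a type and less RNA per cell cannot be told apart.

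Array quality and labels were compared first. Between 18861 and 19178 probe sets exceeded a log2 level of 4 in the 6 lineage arrays, against 18703 to 19327 in the 40 others. Levels of Y-linked genes followed the gender labels in all 6 arrays, while Xist was at a log2 level of 4.98 in the male c57BL/6J array. This was above 2.37 in male C58/J and 2.94 in male C57BR/cdJ and below the 9.97 to 10.43 of the females. Among males of the other strains Xist was higher still in BTBT T+tf/J (7.78), SWR/J (6.73), NON/LtJ (5.42), NZW/LacJ (5.27) and NOD/LtJ (5.19). The log2 difference of 3' and 5' actin signal, which rises as RNA degrades, was 1.95 and 2.59 in male and female c57BL/6J and 0.99 to 1.29 in the other lineage arrays, with a median of 1.32 in the other strains. Over all probe sets tested, the sex-centred strain profile of C57BR/cdJ correlated with that of C58/J at r = 0.38. The profile of c57BL/6J correlated at 0.15 with C57BR/cdJ and at 0.11 with C58/J, and its closest strain was 129S1/Sv1mJ at 0.32. These coefficients are across probe sets, which are not independent, and serve as a description. In male and female 129S1/Sv1mJ the actin difference was 1.70 and 2.19, also above the median. The next closest strains were SJL/J (r = 0.24), with 1.65 and 2.03, and BTBT T+tf/J (r = 0.22), with 2.61 and 1.86. The part of RNA quality in this closeness was not tested. Because c57BL/6J stood apart, shared genes are also given without it below.

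Of the 11183 genes, 70 (0.626%) passed the test in either direction, and 9 of these, including Zfp874a and Igtp, did not have all 6 arrays on one side. The 61 shared genes were divided into 29 that were higher in the lineage (0.259% of genes tested) and 32 that were lower (0.286%). Among them, 22 differed by at least 1 log2 unit, 11 in each direction, and the median size was 0.83. Over all genes the median difference was 0.00, and the 5th and 95th percentiles lay at -0.25 and 0.30. The least certain gene inside the threshold was Xpnpep1 with an adjusted p of 0.0486, and the nearest outside it was Sh3gl3 with 0.0523 and a log2 difference of -0.55. At an unadjusted p under 0.05, 5.49% of all probe sets were found. A gene had to exceed a log2 level of 4 in at least 2 arrays to be tested, and 56 of the 61 did so in both groups. Myo7a and Cdkn3 passed only through the lineage and Me3, Kcnf1 and Tlr3 only through the other strains, so that these 5 had to differ in order to be tested. They are given as values, with no p. Levels and differences below are on the log2(intensity + 1) scale, and means are over strains with their SD.

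For 16 genes (0.143% of those tested) every lineage array lay outside the range of the other strains' arrays of the same gender label. These were Smco3, Ppp1r3e, Myo7a, Clvs1, Tmem100, Scnm1, Mtmr7, Aldh7a1, Ubash3b and Gsto1 above that range and Hddc3, Clasp2, Me3, Haus4, Fah and Psmb5 below it. This count is a description without a test, and the dot plot of single arrays shows each of them.

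**Figure D1:**
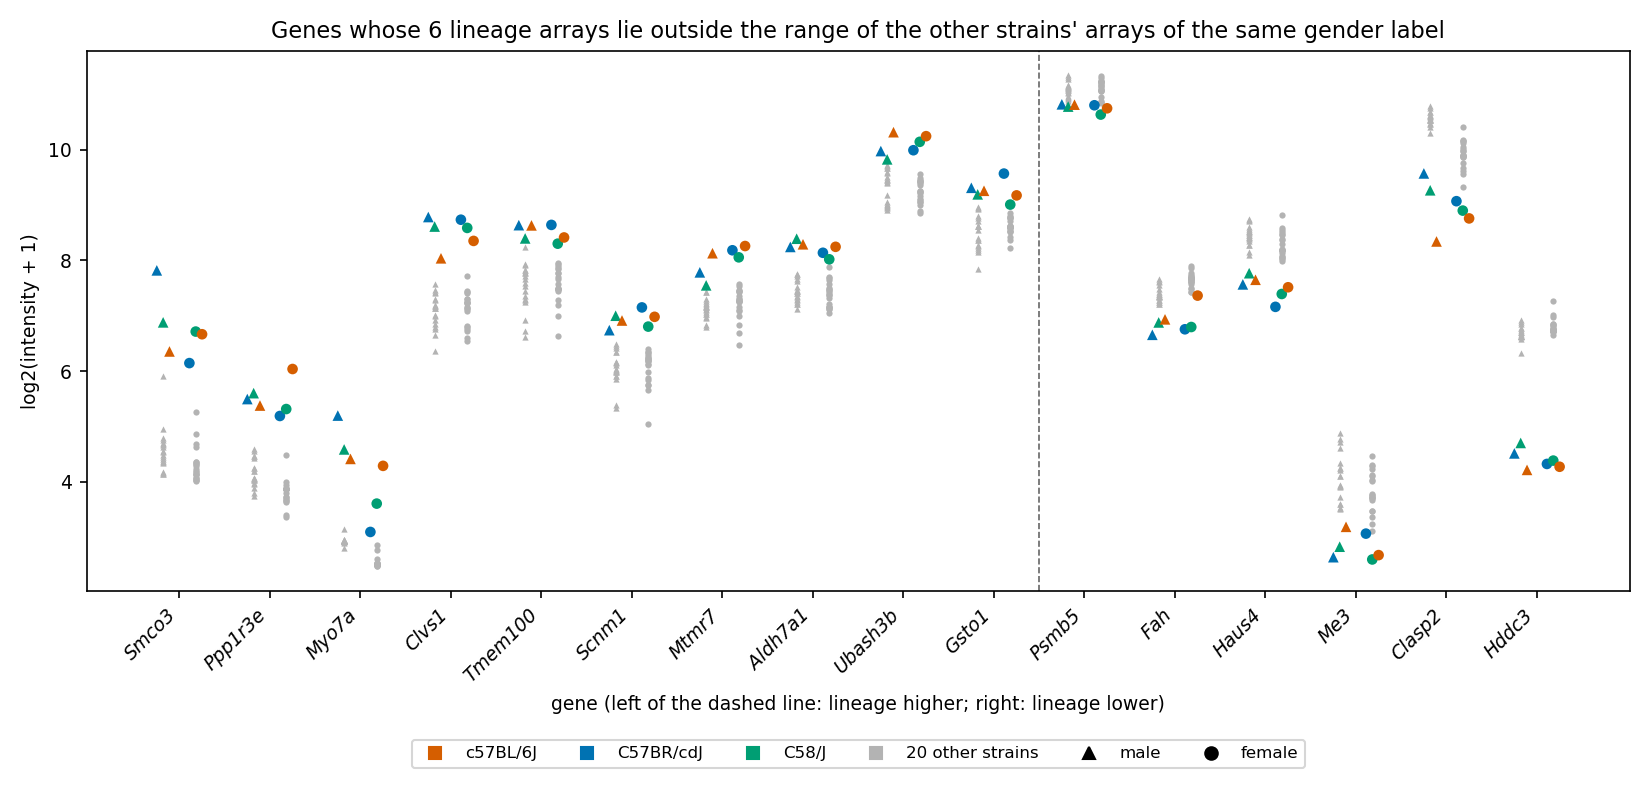
Log2(intensity + 1) of the 16 genes whose lineage arrays lay outside the range of the other strains of the same gender label; each point is 1 array, coloured by lineage strain or grey for the 20 other strains, with triangles for males and circles for females. Hddc3 shows the widest gap, with lineage arrays between 4.22 and 4.70 and the other arrays at 6.33 or above.

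Hddc3, which encodes an HD-domain hydrolase that splits the bacterial-type alarmone ppGpp and acts on NADPH, showed the largest fall. Its level was 4.22 and 4.27 in male and female c57BL/6J, 4.70 and 4.38 in C58/J and 4.51 and 4.32 in C57BR/cdJ. Males of the other strains ran from 6.33 to 6.93 and females from 6.65 to 7.27, so that no array of another strain came near the lineage. The lineage mean was 4.40 ± 0.15 (SD, n = 3 strains) and the other mean 6.75 ± 0.11 (n = 20), a difference of -2.34 with an SE of 0.07 and an adjusted p of 8.58e-17 in limma.

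Smco3, a single-pass membrane protein with coiled-coil domains, was higher in the lineage. Its levels were 6.35 and 6.67 in male and female c57BL/6J, 6.88 and 6.71 in C58/J and 7.82 and 6.14 in C57BR/cdJ. The highest other strain, FVB/NJ, reached 5.92 (male) and 5.26 (female), and the other strains' medians were 4.51 and 4.21. The difference was 2.32 with an SE of 0.19 (adjusted p = 5.62e-08). Ppp1r3e, a subunit that directs protein phosphatase 1 to glycogen, lay between 5.19 and 6.04 in the lineage and at 4.59 or below in every other array, with a difference of 1.52 and an SE of 0.12 (adjusted p = 5.17e-08).

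Myo7a, the unconventional myosin of hair-cell stereocilia and retina, was near the floor of the array in the other strains, at 2.81 to 3.15 in males and 2.48 to 2.86 in females. In the lineage it ran from 3.10 in the female C57BR/cdJ array to 5.20 in the male array of the same strain. No other array and 4 of the 6 lineage arrays exceeded the filter of 4. The difference of 1.45 therefore compares a low signal with one at the floor and is a description. Clvs1, a lipid-binding protein of neuronal endosomes, was well expressed in both groups. It lay at 8.04 and 8.35 in c57BL/6J, 8.61 and 8.59 in C58/J and 8.78 and 8.73 in C57BR/cdJ, against other medians of 7.15 in males and 7.19 in females (difference 1.41, SE 0.15, adjusted p = 5.23e-06). All 6 arrays exceeded the other strains' highest values of 7.58 and 7.71.

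Tmem100, a membrane protein of sensory neurons and endothelium that modifies the coupling of the irritant channels TRPA1 and TRPV1, was 8.50 ± 0.15 in the lineage and 7.54 ± 0.29 in the others. Its 6 lineage arrays ran from 8.30 to 8.64, above the highest other male at 8.24 and the highest other female at 7.96. The difference was 0.97 (SE 0.17, adjusted p = 0.0038), and without C57BR/cdJ the adjusted p was 0.0579. Scnm1, a splicing factor known as a modifier of a neuronal sodium channel mutation and for a variant in C57BL/6J mice, was uniform in the lineage, with strain differences of 0.89, 0.85 and 0.89 in c57BL/6J, C58/J and C57BR/cdJ. Its overall difference was 0.88 (SE 0.14, adjusted p = 0.00107). Of 27 tested genes of glutathione and aldehyde metabolism 2 were shared, with 18 differences above and 9 below 0 and a median of 0.06, against 0.00 over all genes. Aldh7a1, which acts in lysine breakdown, differed by 0.81 (SE 0.10, adjusted p = 2.26e-05) and Gsto1, a glutathione transferase of the omega class, by 0.69 (SE 0.11, adjusted p = 0.00107). A second probe set of Gsto1, with a mean level of 7.71, differed by 0.25, did not pass the test and overlapped the other strains.

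Clasp2, which binds growing microtubule ends, was lower in the lineage at 8.98 ± 0.39 against 10.24 ± 0.16. The male c57BL/6J array was lowest at 8.34 and the male C57BR/cdJ array highest at 9.57, still below the 10.30 of the lowest other male. The difference was -1.26 (SE 0.12, adjusted p = 7.92e-07). Me3, a mitochondrial malic enzyme, was at 3.19 or below in the lineage, close to the floor, and at medians of 4.03 and 3.75 in the other males and females. No lineage array exceeded the filter of 4, and the difference of -1.11 is a description. Fah, the last enzyme of tyrosine breakdown, fell by 0.62 (SE 0.08, adjusted p = 1.10e-04), with the lineage arrays at 6.66 to 7.36. Psmb5, a catalytic subunit of the proteasome, had the smallest difference among the separated genes at -0.34 (SE 0.07, adjusted p = 0.0233).

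By leading probe sets the 3 largest differences belonged to Rpgrip1, Car8 and Gm26782, whose lineage level also occurred in 1 other strain each. Rpgrip1, a scaffold of the photoreceptor cilium, was at 8.04 and 8.59 in male and female c57BL/6J, 8.52 and 8.85 in C58/J and 8.50 and 9.20 in C57BR/cdJ. Other medians were 3.84 in males and 3.27 in females, but NZW/LacJ stood at 8.40 and 8.87, inside the lineage's range. The difference was 4.53 with an SE of 0.67 (adjusted p = 5.97e-04). Car8, a carbonic anhydrase-related protein without enzyme activity that binds the IP3 receptor, was at 6.77 and 7.56 in c57BL/6J, 7.63 and 7.94 in C58/J and 7.15 and 7.46 in C57BR/cdJ. NZO/HILtJ at 7.42 and 8.08 lay in the same range, and RIIIS/J, NZW/LacJ and A/J were intermediate, at 5.56 to 6.55 in males and 5.74 to 6.24 in females. For Car8 the difference was 3.33 (SE 0.73, adjusted p = 0.0306).

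The predicted gene Gm26782 ran from 7.01 to 7.80 in the lineage and was near 4.48 and 4.19, the medians of males and females, in the others. BTBT T+tf/J alone among the 20 reached 8.11 and 7.88, and the difference was 2.88 (SE 0.45, adjusted p = 0.00129). Nxpe2, of the neurexophilin family, had a lineage mean of 5.17 ± 0.33 against 3.51 ± 0.59 (difference 1.67, SE 0.34, adjusted p = 0.0165). BUB/BnJ lay in the lineage's range in both arrays, and KK/HIJ came close at 4.49 and 5.38. Pop4, a subunit of ribonuclease P, was at 7.36 or above in the lineage (difference 1.16, SE 0.26, adjusted p = 0.0316), which NZO/HILtJ matched with 7.42 and 8.01. Mboat2, a lysophospholipid acyltransferase, ranged from 7.87 to 8.46 (difference 1.04, SE 0.22, adjusted p = 0.0197), and NZW/LacJ exceeded most of these arrays at 8.74 and 8.38.

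After Hddc3, the largest differences among the lower genes were those of Kcnf1 and Scg5. Kcnf1, the silent potassium channel subunit Kv5.1, was at 3.34 to 4.29 in the lineage against medians of 6.07 and 6.39 in the other males and females. SJL/J at 3.57 and 3.82 and NZW/LacJ at 2.65 and 3.97 were as low in males and slightly above the lineage in females. The difference was -2.33, and 1 of the 6 lineage arrays exceeded the filter of 4. Scg5, the chaperone 7B2 of prohormone convertase 2 in the secretory pathway, was at 9.78 and 9.83 in c57BL/6J, 10.04 and 9.99 in C58/J and 10.28 and 10.13 in C57BR/cdJ. BUB/BnJ was lower at 9.21 and 9.70 and 129S1/Sv1mJ lay at 9.93 and 10.26, while the medians were 12.08 and 12.40 (difference -1.97, SE 0.43, adjusted p = 0.0313).

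Gnb1, a G protein beta subunit through which many receptors of sensory neurons signal, was at 10.28 ± 0.28 in the lineage and 11.83 ± 0.47 in the others (difference -1.55, SE 0.27, adjusted p = 0.00361). Its lineage arrays ran from 9.90 to 10.99, and the low other strains were NZW/LacJ at 11.08 and 9.83 and KK/HIJ at 10.60 and 11.03. Cacna2d2, a calcium channel alpha2delta subunit that binds gabapentin, was at 6.42 to 6.89 in the lineage. DBA/2J at 6.77 and 6.82, CBA/J at 7.17 and 6.59 and KK/HIJ at 7.21 and 6.70 were likewise low, against medians of 8.19 and 8.29 (difference -1.41, SE 0.32, adjusted p = 0.0454). Its call was lost in 25 of 40 alternatives, with adjusted p of 0.181 to 0.261 when 1 lineage strain was left out. Frg1, a nuclear protein linked to RNA processing, was lower by 1.34 on the log2 scale (SE 0.27, adjusted p = 0.019), and DBA/2J and C3H/HeJ had levels of 6.10 and 6.11 and of 6.03 and 6.11. Without c57BL/6J its difference was -1.05 with an adjusted p of 0.341, and without C58/J the adjusted p was 0.0699.

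Shoc2, a scaffold of RAS to MAP kinase signalling, ranged from 7.39 to 7.97 in the lineage, with medians of 8.97 and 9.16 in the others (difference -1.32, SE 0.15, adjusted p = 1.01e-05). Only the male RIIIS/J array, at 7.69, entered that range. Lpl, which splits the triglycerides of lipoproteins, was higher by 1.05 (SE 0.21, adjusted p = 0.0159), with 5.19 to 6.44 in the lineage males and 6.67 to 7.75 in the females. These overlapped the other males, which reached 5.75, and the other females, which reached 6.91. Fat cells and macrophages express Lpl. All 5 adipocyte markers tested had differences above 0, with a median of 0.47, and none passed the limma test, adjusted or unadjusted. Of 16 macrophage markers 15 were above 0, with a median of 0.49 and none called in limma. At an unadjusted p under 0.05 in limma there were 5 (31.25%), against 6.06% of all genes tested. The summed intensity of the macrophage markers was 5448 in the female C57BR/cdJ array and 1250 to 1520 in the other lineage arrays. In the other strains it was 638 to 3109. Skeletal muscle markers were also mostly above 0 (12 of 14, median 0.32), as were liver secretory genes (7 of 8, median 0.41). In neither list did any gene have all 6 lineage arrays above the other strains' mean. The summed muscle intensity was 2989 in male c57BL/6J and 1045 to 1701 in the other lineage arrays, with other medians of 1359 and 1399. The liver sum was 635 and 774 in C58/J and 49.1 to 93.8 in the other lineage arrays, with other medians of 57.1 and 75.7. Schwann cell and myelin markers were mostly below 0 (15 of 18, median -0.09), as were satellite glia markers (9 of 13, median -0.16). The part of these cell types in the Lpl result was not tested. Lpl lost its call without C58/J (adjusted p = 0.25), without C57BR/cdJ (0.0945) and without the female C57BR/cdJ array alone (0.177), where its difference was 0.81.

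**Figure D2:**
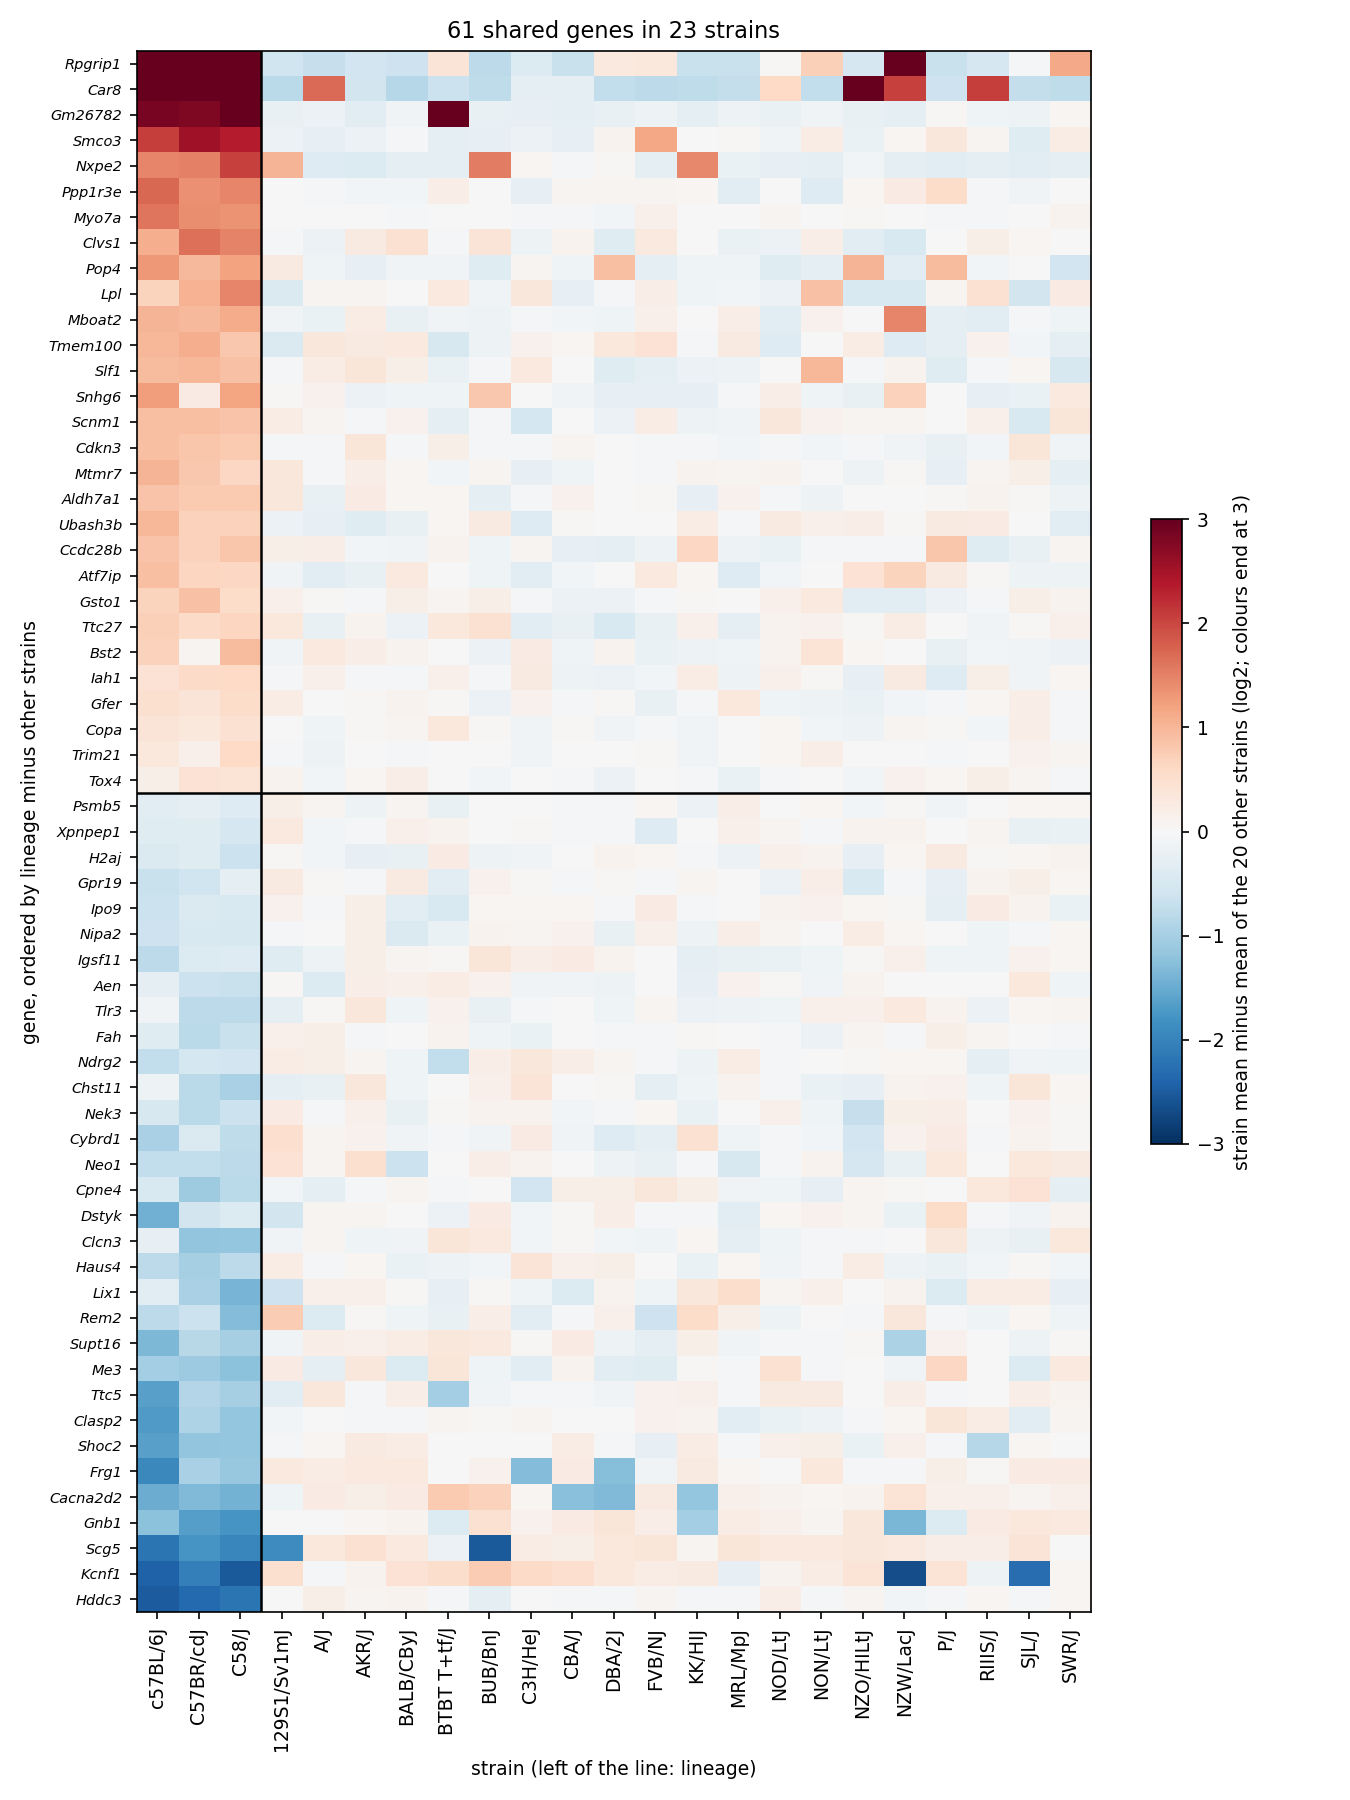
Strain mean minus the mean of the 20 other strains, in log2 units, for the 61 shared genes, 1 per line, in 23 strains, 1 per column, with the 3 lineage strains left of the vertical line and genes higher in the lineage above the horizontal line. Genes at the top and bottom show single strains outside the lineage with the same level, such as NZW/LacJ for Rpgrip1 and BUB/BnJ for Scg5.

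Taking a strain as inside the lineage's range when both of its arrays were at least as extreme as the least extreme lineage array of their gender label, 41 of the 61 genes had no such strain among the 20. One such strain was found for 14 genes, 2 for 3 genes, 3 for 2 genes and 4 for Tlr3. BUB/BnJ was inside for 5 genes, BTBT T+tf/J and NZO/HILtJ for 4 each, and AKR/J, CBA/J, KK/HIJ, NOD/LtJ, P/J, SJL/J and SWR/J for 0 by this definition. The 61 genes were chosen by a small p on these same values, which favours few strains inside the range. These counts are therefore a description.

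Many of the shared genes lay near one another in the order of genes. By the order of tested genes in the RefSeq gene table, 37 of the 61 (60.7%) lay within 30 tested genes of another shared gene, against 19.6% of all genes placed, and 27 (44.3%) within 10, against 8.17%. Both windows were chosen after the data were seen, and the counts are a description. The 37 include Myo7a, Cdkn3, Me3, Kcnf1 and Tlr3, which had to differ in order to be tested, and a count without them is not given. The 37 genes formed 9 runs on chromosomes 1, 4, 6, 7, 8, 9, 12, 14 and 19.

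The longest run, of 11 genes on chromosome 14, held in order Cdkn3, Ttc5, Gm26782, Ndrg2, Rpgrip1, Supt16, Tox4, Rem2, Haus4, Psmb5 and Ppp1r3e. They were 11 of the 55 tested genes that the run spans, and 5 were higher and 6 lower. Ttc5, a cofactor in tubulin mRNA decay, was at 6.06 to 7.26 in the lineage against 7.89 ± 0.29 (difference -1.17, SE 0.18, adjusted p = 0.00107), and BTBT T+tf/J was as low at 7.17 and 6.56. Supt16, the large subunit of the histone chaperone FACT, ran from 6.11 to 6.99 (difference -1.06, SE 0.17, adjusted p = 0.00107). Rem2, a small GTPase that restrains voltage-gated calcium channels, was 5.94 ± 0.34 against 6.85 ± 0.31 (difference -0.91, SE 0.19, adjusted p = 0.0201). Haus4, of the augmin complex that nucleates microtubules, was lower by 0.86 on the log2 scale (SE 0.10, adjusted p = 1.98e-05), with every lineage array at 7.77 or below and every other array at 7.99 or above.

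Rpgrip1 and Supt16 are separated by a single further entry in the RefSeq table, and they differed in opposite directions. NZW/LacJ matched the lineage at Rpgrip1 and had the lowest Supt16 of the other strains, 6.98 and 6.57. BTBT T+tf/J matched it at Gm26782, Ttc5 and Ndrg2, which are also close together.

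The reference sequence upstream of 4 genes is shown because they carry the widest gap by leading probe sets (Hddc3) or lie in the chromosome 14 run with opposite directions (Rpgrip1 against Supt16 and Haus4). Each is the 250 bases before the annotated start from RefSeq, build GRCm38.p6, read 5′ to 3′ on the gene's strand, with CCAAT or GGGCGG on either strand in capitals. The windows are chr7:80342887-80343136 on the plus strand for Hddc3, chr14:52110653-52110902 on the plus strand for Rpgrip1, chr14:52197240-52197489 on the minus strand for Supt16 and chr14:54554362-54554611 on the minus strand for Haus4.
Hddc3: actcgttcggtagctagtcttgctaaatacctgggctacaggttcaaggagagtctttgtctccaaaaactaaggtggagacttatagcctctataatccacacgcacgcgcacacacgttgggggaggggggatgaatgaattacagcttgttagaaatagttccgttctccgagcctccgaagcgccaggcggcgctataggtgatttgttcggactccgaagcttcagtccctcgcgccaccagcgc
Rpgrip1: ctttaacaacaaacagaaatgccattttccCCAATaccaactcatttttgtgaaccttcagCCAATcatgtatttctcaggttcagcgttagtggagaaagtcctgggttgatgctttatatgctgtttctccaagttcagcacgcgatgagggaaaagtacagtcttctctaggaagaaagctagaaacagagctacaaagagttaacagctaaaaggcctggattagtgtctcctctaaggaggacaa
Supt16: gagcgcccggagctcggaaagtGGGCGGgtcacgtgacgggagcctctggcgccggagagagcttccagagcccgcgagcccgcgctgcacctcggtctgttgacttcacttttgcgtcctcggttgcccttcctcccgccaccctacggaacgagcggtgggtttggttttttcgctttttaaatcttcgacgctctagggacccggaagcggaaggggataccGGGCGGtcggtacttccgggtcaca
Haus4: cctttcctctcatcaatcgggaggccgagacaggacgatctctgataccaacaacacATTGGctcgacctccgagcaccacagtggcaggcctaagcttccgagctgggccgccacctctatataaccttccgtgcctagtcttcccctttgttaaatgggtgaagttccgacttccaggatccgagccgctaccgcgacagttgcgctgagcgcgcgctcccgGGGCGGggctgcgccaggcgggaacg
The reference assembly is that of C57BL/6J, so these are the sequences of a lineage strain, and how the other strains differ from them was not examined. The Rpgrip1 window was AT-rich, with 41.6% G and C, 3 CG pairs and 2 CCAAT matches, while that of Supt16 had 63.6% G and C, 28 CG pairs and 2 GGGCGG matches. Hddc3 had 17 CG pairs and neither motif. Promoter windows were found for 49 of the 61 genes, 64 windows in all. CCAAT or its reverse complement occurred in 37.5% of them, against 34.6% of windows of all tested genes, and GGGCGG or its reverse complement in 54.7% against 57.1%. TATAAA or its reverse complement occurred in 6.25% against 6.49%. The shares in the shared genes thus lay close to those of all tested genes.

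On chromosome 8 the run held Mtmr7, Frg1, Tlr3, Clcn3 and Lpl, on chromosome 7 Aen, Hddc3, Fah, Me3 and Myo7a, and on chromosome 6 Gpr19, Atf7ip, H2aj and Smco3. Car8 and Clvs1, both higher, were 2 of 3 consecutive tested genes on chromosome 4. Kcnf1, lower, lay with Iah1 and Mboat2, both higher, on chromosome 12, and Gsto1, Xpnpep1 and Shoc2 lay on chromosome 19. Runs on chromosomes 1 and 9 paired Dstyk with Ipo9 and Cpne4 with Cacna2d2.

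**Figure D3:**
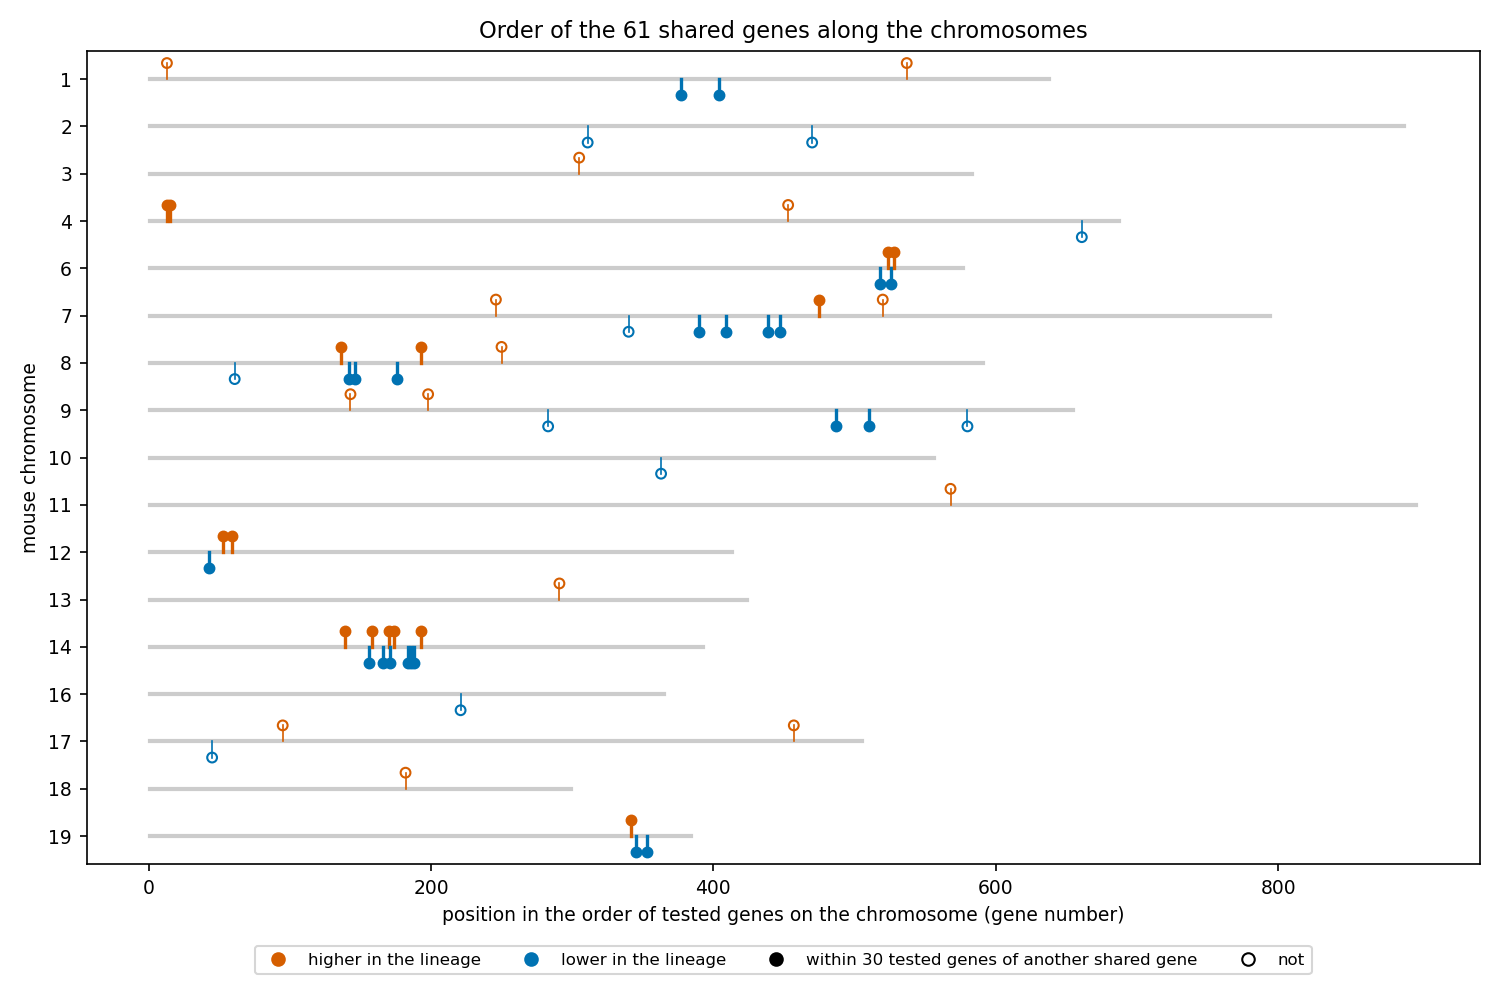
Order of the 61 shared genes along the chromosomes that hold any, with the gene's number among tested genes on the horizontal axis; orange marks above the line are genes higher in the lineage, blue marks below it genes that were lower, and filled marks have another shared gene within 30 tested genes. The 11 genes of chromosome 14 form the longest run, with both colours interleaved.

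Affymetrix arrays measure many genes with more than 1 probe set, each at another place in the transcript. For 28 shared genes 39 further probe sets were tested, of which 32 had the sign of the leading probe set and 7 the opposite sign. Of the 10 that passed the test, 9 had the same sign. Mtmr7, a myotubularin-related lipid phosphatase, stood out among them. Its leading probe set differed by 0.82 (SE 0.10, adjusted p = 4.44e-05), and its second probe set was at 8.75 and 9.84 in male and female c57BL/6J, 9.03 and 9.83 in C58/J and 9.32 and 9.56 in C57BR/cdJ. In every other strain it was between 4.54 and 5.44, a difference of 4.49 (adjusted p = 3.71e-21).

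Second probe sets also passed in the same direction for Clasp2 (-2.42 and -1.72), Supt16 (-1.92), Shoc2 (-1.41), Clcn3 (-0.96), Neo1 (-0.78), Clvs1 (1.03) and Ccdc28b (0.55). Clcn3 had 2 further well-expressed probe sets of the opposite sign, at 0.13 and 0.37, that did not pass. The other probe set of Dstyk was at 0.32 against -0.81 for the leading one, and those of Ubash3b were at 0.15 and -0.07 against 0.80. Likewise of opposite sign and not called were those of Mboat2, at -0.15 against 1.04, and Atf7ip, at -0.31 against 0.72. Their mean levels were 6.11 and 4.88. Gfer, a sulfhydryl oxidase of the mitochondrial intermembrane space, was the exception, with 0.47 by its leading and -0.39 by its second probe set, both called. For Kcnf1 and Cacna2d2 the second probe set was dim, with mean levels of 3.99 and 3.56, and differed by -0.07 and -0.14. Hddc3, Smco3, Rpgrip1, Car8 and Gm26782 had no second probe set above the filter. Whether a difference reflects the RNA level, the transcript form or the binding of a probe to a variant sequence was not tested.

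**Figure D4:**
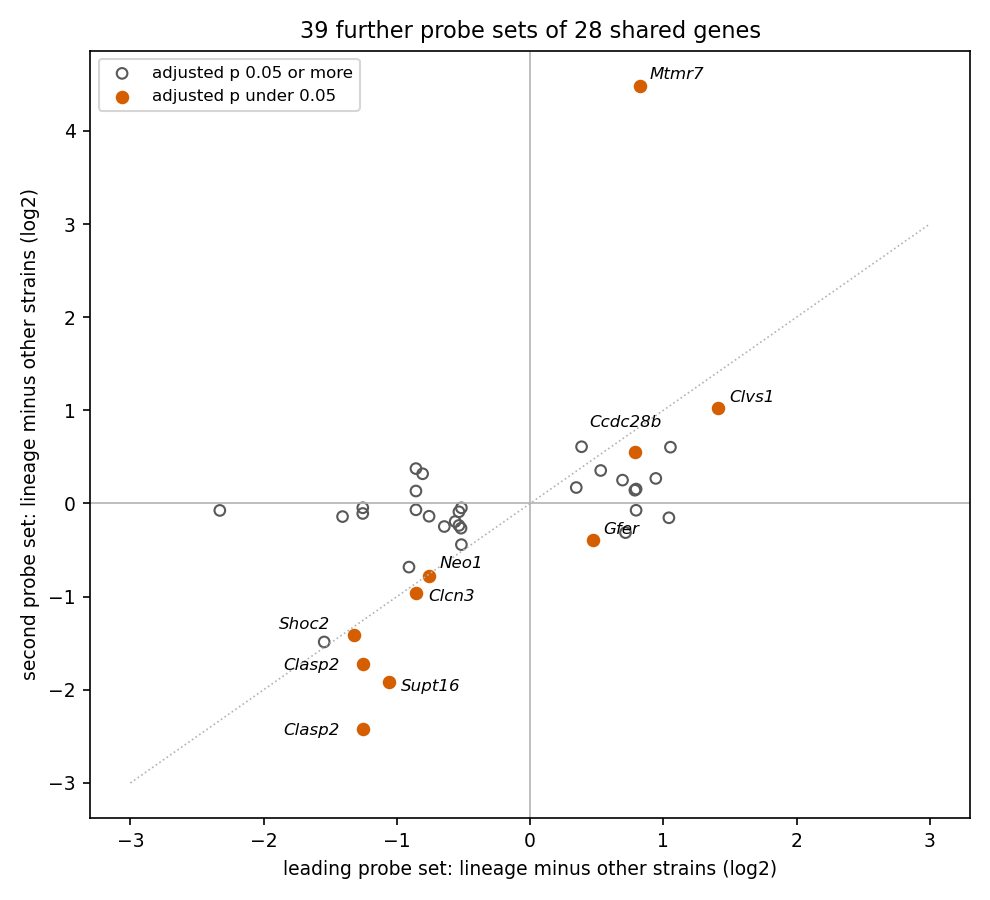
Difference between lineage and other strains (log2) by the leading probe set on the horizontal axis and by each of 39 further probe sets of 28 shared genes on the vertical axis, with those at an adjusted p under 0.05 filled and named; the dotted line marks equal differences. Mtmr7 lies far above that line at 4.49, and Gfer is the named gene with opposite signs.

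The sexes were then used to read calls across arrays that had not made them. In males alone 32 genes (0.286% of those tested) were called with all 3 arrays on one side, and in females all 32 had the same sign. Of the 32, 30 had all 3 female arrays on that side, against 25.7% of all genes whose female arrays lay together on the side of the male difference, and 20 were also called in females. In females alone 37 genes (0.331%) were called, all 37 with the same sign in males, 32 with all 3 male arrays on that side against 26.3% of all genes, and 20 called. Both pools of a strain share its genome, so this compares pools and arrays, not independent lineages. No gene had a lineage difference that differed between the sexes at an adjusted p under 0.05 in limma, and 200 of 11183 did at an unadjusted p under 0.05.

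Among the 3 lineage strains themselves, 381 genes (3.41% of those tested) differed by the limma F test, and of the 61 shared genes 6 did, namely Snhg6, Frg1, Chst11, Dstyk, Clcn3 and Ttc5. C57BR/cdJ had the smallest shift for Snhg6, a small nucleolar RNA host gene, at 0.24 against 1.26 in c57BL/6J and 1.17 in C58/J. For Clcn3, an endosomal chloride-proton exchanger, c57BL/6J had -0.24 against -1.15 in C58/J and -1.18 in C57BR/cdJ. Chst11, a chondroitin sulfotransferase, was likewise least shifted in c57BL/6J, with -0.16 against -0.96 and -0.81. Without c57BL/6J, 30 of the 61 genes were still called, without C58/J 23 and without C57BR/cdJ 32. Called without each of the 3 in turn were 19 genes, namely Hddc3, Smco3, Rpgrip1, Gm26782, Ppp1r3e, Myo7a, Clvs1, Mtmr7, Aldh7a1, Scnm1, Gsto1 and Cdkn3 together with Clasp2, Shoc2, Haus4, Ttc5, Supt16, Fah and Me3. Of these, 16 had passed the filter through both groups. Myo7a, Cdkn3 and Me3 had not, so their calls are a description. Car8, Nxpe2, Pop4, Mboat2, Kcnf1 and Scg5 each lost the call without any 1 of the 3. The adjusted p was then 0.136 to 0.221 for Car8, 0.0649 to 0.192 for Nxpe2 and 0.101 to 0.249 for Pop4. It was 0.0959 to 0.15 for Mboat2 and 0.116 to 0.236 for Scg5, and Kcnf1 is given without p. Rem2 lost it without c57BL/6J (0.0783) and without C58/J (0.318), and Gnb1 without C58/J (0.0619).

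The remaining shared genes had differences of 0.35 to 0.94 upward and -0.34 to -0.90 downward. Lower were, among others, Lix1 (-0.90), Neo1, the receptor neogenin for netrins and repulsive guidance molecules (-0.76), Cybrd1, a ferric reductase (-0.72), Nipa2, a magnesium transporter (-0.52), and the orphan receptor Gpr19 (-0.51). Higher were, among others, Slf1 (0.94), the phosphatase Ubash3b (0.80), Ccdc28b (0.79), Atf7ip (0.72) and the coatomer subunit Copa (0.39). Members with innate immune roles were found in both directions. The double-stranded RNA receptor Tlr3 had a difference of -0.56, with c57BL/6J at only -0.10 against -0.79 and -0.80 in C58/J and C57BR/cdJ. Without either of the latter its call was lost. Tlr3 passed the filter only through the other strains, so its difference is a description. The antibody receptor and ubiquitin ligase Trim21 was higher by 0.36 (adjusted p = 0.0134, and 0.318 without C58/J), and the virus tether Bst2 by 0.58 (SE 0.13, adjusted p = 0.0473). The strain differences of Bst2 were 0.70 and 0.96 in c57BL/6J and C58/J but 0.08 in C57BR/cdJ. It lost its call in 25 of 39 alternatives, with adjusted p of 0.357 without c57BL/6J and 0.653 without C58/J.

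Of 545 tested genes in 44 lists of sensory neuron, glial, immune, adjacent tissue, channel, receptor and metabolic genes, 4 were shared, namely Cacna2d2 (lower), Bst2, Gsto1 and Aldh7a1 (higher), and 40 lists had none. This was 0.734% of the listed genes, near the 0.545% of all genes tested. The median difference of 29 lists lay within 0.1 of 0. Of 15 sensory neuron identity genes 8 were above and 7 below 0, with a median of 0.01, and all genes tested had 5699 above and 5484 below 0. Among 13 calcium channel genes Cacna2d2 was called, and the other 12 differed by -0.40 to 0.25. The 16 cholesterol synthesis genes had 14 above 0 and a median of 0.20, and the 30 interferon-stimulated genes 28 above 0 and a median of 0.27. In the latter list Bst2 was shared and Igtp (1.04, adjusted p = 0.0434) was called without all 6 arrays on one side. Of the 30, 13.3% had all 6 lineage arrays on one side, against 13.4% of all genes tested. The summed intensity of the 30 was 2962 and 3376 in male and female C57BR/cdJ, below the other medians of 3134 and 3763. It was 4077 to 4615 in c57BL/6J and C58/J. Chrna6, the nicotinic subunit named in the series title, was lower in all 6 lineage arrays by a mean of 0.45 on the log2 scale, with levels of 7.30 against 7.75 and did not pass the test (adjusted p = 0.99989). The lineage males, at 7.20 to 7.44, lay around the other males' median of 7.33. The ATP receptor subunits P2rx2 and P2rx3 differed by -0.10 and -0.15 and did not pass the test.

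A list of genes known to carry variants in C57 strains was followed by name. It does not hold Scnm1, given above, and of its 14 genes tested 0 passed in limma, against 0.626% of all genes. At an unadjusted p under 0.05 in limma there were 4 (28.6%), against 6.06% of all genes tested. The list was written with earlier results of the same arrays known, so this share is only a description. Pttg1, or securin, was at 9.68 and 10.36 in male and female c57BL/6J and at 5.96 to 6.55 in C58/J and C57BR/cdJ, with 6.18 ± 0.71 in the other strains, so that its mean difference of 1.35 (adjusted p = 0.737) rested on 1 strain. Wdfy1 (-0.73) was likewise low in c57BL/6J alone, with a strain difference of -2.35 against -0.17 and 0.33 in C58/J and C57BR/cdJ. Glo1, the glyoxalase whose copy number varies among strains, was lower in all 6 arrays by 0.72 on the log2 scale (adjusted p = 0.89), and the dioxin receptor Ahr by 0.58 (adjusted p = 0.362). Both were even across the lineage, at -0.65 to -0.75 for Glo1 and -0.55 to -0.62 for Ahr. The other members were Ly6e (0.33), Alad (-0.49), Erdr1 (-0.56), Ifi202b (0.15), Tmem181a (-0.12), Ces1d (0.08), Mx1 (-0.07), Gstm1 (0.04), Fv1 (0.02) and Gpnmb (0.01).

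Of 4 genes with variants private to c57BL/6J none was shared, and 1 (25%) had an unadjusted p under 0.05 in limma, against 6.06% of all genes. Gabra2, a GABA receptor subunit, differed by -1.84 in c57BL/6J and by 0.02 and -0.18 in C58/J and C57BR/cdJ, and Nnt, the mitochondrial transhydrogenase, by -0.91 in c57BL/6J and by 0.68 and 0.51. Ide (0.18) and Fbxl12 (0.12) had lineage differences that did not pass. These lists were written with earlier results of the same arrays known.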

How the data were processed

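Dorsal root ganglion RNA of 25 inbred strains was measured on 50 Affymetrix arrays. The authors deposited linear intensities, 1 per probe set, computed by GCRMA (R version 2.6.2), as the submitters' processing notes name them; further settings are not given in the sources used here. Lowest intensities were 1.629 to 1.655 in male and 1.726 to 1.744 in female arrays, so log2(intensity + 1) was centred on the other strains' mean within each gender label. The 64 control probe sets were left out, and the 22130 probe sets above 4 in at least 2 of 46 arrays were tested. Strain means, 3 against 20, were compared with limma 3.58.1 (lmFit, eBayes) in R 4.3.3, with Benjamini-Hochberg adjustment over all probe sets and a threshold of 0.05. The strain was the replicate. Each has 1 pool per gender label, so p-values measure the spread between strains. Each gene was represented by its brightest probe set among those assigned to a single symbol. Named are the 12 largest differences in each direction, up to 3 shared members of each list, the known variants, Chrna6, P2rx2 and P2rx3; other names, the remaining shared genes among them, were chosen after their values were seen. The strains compared and all lists were chosen with earlier results of these data known. RefSeq (GRCm38.p6) gave gene names, order and promoter sequences. The scripts were tested on simulated data. Precision is limited by the number of strains. Filters, pseudocount, normalization, model, gender label, probe set and left-out strains or arrays were varied as described at the end.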

Additional observations from a re-analysis of the deposited data

Results flagged for a closer look

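For 8 of the 61 shared genes 1 of the 6 lineage arrays lay far from the other 5, by Dixon's 95% limit for the gap divided by the range. That limit assumes independent values, while these arrays are pairs from the same strains, in genes chosen for having all 6 on one side. Its rate of 1 in 20 is therefore no yardstick here. The male c57BL/6J array was the distant one in 5 of the 8. Values are log2 differences from the other strains' mean of the same gender label.

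In that array Clasp2 was at -2.22 with the other 5 arrays at -1.30 to -0.845, and Igsf11 at -1.26 with the others at -0.527 to -0.236. Iah1 was at 0.327 against 0.534 to 0.601, Tox4 at 0.0111 against 0.338 to 0.483 and Aen at -0.0892 against -0.744 to -0.498. The last 3 were therefore closer to the other strains in male c57BL/6J than in the rest of the lineage. In the female c57BL/6J array Ppp1r3e was at 2.23 against 1.22 to 1.51. In male C57BR/cdJ, Pop4 was at 0.709 against 1.17 to 1.31 and Kcnf1 at -1.49 against -2.60 to -2.33.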

How the results depend on the processing

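With the probe set of the largest range Gfer turned to -0.393. In fits on fewer lineage strains, fewer lineage arrays or 1 sex, the rule that all 6 arrays lie on one side fixes the sign, which is therefore no sign of stability. Called in all alternatives that tested them were 16 genes, 13 of which had passed the filter through both groups. Of 29 higher and 32 lower genes, the count of lower genes was 20 without an intensity filter. With the arrays fitted with strain as a random block (correlation 0.243) the counts were 53 and 52. Male arrays alone gave 17 and 15, and female arrays alone 12 lower. Leaving out strains or arrays in turn gave 17 to 37 higher and 17 to 37 lower genes. The lowest counts came without c57BL/6J (17 higher, 20 lower), without C58/J (17 lower) and without C57BR/cdJ (17 lower). The count of separated genes, 16, was 24 to 29 when a lineage strain was left out, 29 without c57BL/6J and 26 without C58/J. The causes were not tested. All other alternatives stayed within 1.5 times the counts. No paired analysis was possible because each strain is its own group and the labels carry no replicate numbers. With 3 lineage strains, small differences cannot be resolved, and signals near the floor, as for Myo7a, Me3, Trim21 and Tlr3, give compressed differences.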

Other observations

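A further 18 genes met the rule for shared genes by a second probe set only, while the brighter probe set that stood for the gene did not, so they are not among the 61. Ntrk3, the neurotrophin-3 receptor of large sensory neurons, was lower by 2.49 on the log2 scale (adjusted p = 0.0197), and Ang, a secreted ribonuclease on chromosome 14, was higher by 1.76 (adjusted p = 3.02e-07). Higher as well were Them5 (1.93), Tm2d2 (1.72), Pex19 (1.64), Shisa3 (1.43), Sc5d (1.25), an enzyme of cholesterol synthesis, and the interferon-inducible Trim30a (1.03, adjusted p = 1.81e-06). Pex19 is the next gene after Copa on chromosome 1 in the RefSeq table, and Vps37a is next to Mtmr7 on chromosome 8. Vps37a had 2 such probe sets of opposite sign, 0.73 and -0.63.

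SM/J and PL/J, which were left out of the comparison, are given for 3 genes where the male SM/J array stood apart, and for Ccdc28b. The female SM/J array held Xist at 9.43 and also the Y-linked Eif2s3y at 6.82 and Uty at 4.31. In the male PL/J array Xist was at 8.97. A split between the arrays of these strains can therefore not be read as one between the sexes. Smco3 was at a log2 level of 7.08 in male and 5.27 in female SM/J, against 5.34 and 4.01 in PL/J. The male SM/J value lay within the 6.35 to 7.82 of the lineage males. Fah was at 5.20 in male SM/J, below all lineage arrays, and at 7.43 in the female array. Shoc2 showed the same split, with 6.90 in the male and 8.91 in the female SM/J array. Ccdc28b was at 7.95 and 8.19 in male and female SM/J and at 8.10 and 8.28 in PL/J. These values lay inside the lineage's ranges of 7.77 to 8.11 in males and 8.18 to 8.31 in females. Among the strains compared, KK/HIJ at 7.72 and 8.18 and P/J at 7.70 and 8.61 came close, so its level was not particular to the lineage.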
